A study of Mus musculus with 6 samples.

Results

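The 39 genes described here encode the machinery of homologous recombination and of the Fanconi pathway of crosslink repair. They were chosen by gene name, by membership of these pathways, and all 39 were found among the 55401 genes of the deposited table. Expression was measured by total RNA sequencing of bone marrow cells from 6 mice with a leukaemia driven by Hoxa9 and Meis1, 1 library a mouse, each mouse a secondary recipient. The Lym group holds lymphoid leukaemia cells (labelled Lym+) of mice 62, 63 and 87, which had been given lymphoid leukaemic stem cells. The Lin- group holds Lin-cKit+ progenitor cells, negative for lineage markers and positive for the stem cell factor receptor Kit, of mice 56, 57 and 91, which had been given Lin- leukaemic stem cells. Both groups are leukaemias of that same pair of driver genes, no group without them is included, and the vector, strain, age and donor leukaemia of each mouse are not given in the sources used here. Mice that share a donor would not be independent, and the p-values below treat each mouse as 1 replicate. Differences are Lym minus Lin-, and values listed by library follow the order of mice 62, 63 and 87 for Lym and of mice 56, 57 and 91 for Lin-.

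Homologous recombination repairs double-strand breaks and stalled replication forks by copying the sister chromatid, and so acts in S and G2 phase. The kinases ATM and ATR sense breaks and single-stranded DNA, nucleases trim the broken end, and the BRCA proteins then prepare it for the search for a matching strand. The Fanconi core complex is a ubiquitin ligase that marks the FANCD2 and FANCI proteins at a crosslink, after which nucleases unhook it, and inherited loss of this pathway in humans causes bone marrow failure and predisposes to leukaemia. In blood, these genes are known for protecting fast-dividing progenitor cells from replication damage, and transcripts of many of them rise as cells enter S phase.

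Recovered reads came to 18537700 to 22634286 a library, and 3 reads, the floor used here for each library, correspond to normalized counts of 2.64 to 3.36, counting error only. The Lym libraries of mice 63 and 87 had at least 1 read in 24027 and 23836 genes, against 19427 to 20358 in the other 4 libraries, and the library of Lym mouse 62 was made from 1 ng of RNA against 2 ng in the others. The labelled cell types were checked on their markers. Kit was at normalized counts of 18902, 12027 and 3158 across the Lym mice, compared with 4953, 6066 and 3420.2 across the Lin- mice, so its groups overlapped. The other progenitor markers Cd34, Flt3 and Myb were each higher in all 3 Lym libraries than in any Lin- library, Cd34 at 6207 to 7099 against 4025 to 6152. The B lineage genes Cd79a and Pax5 were at or near the floor in every library, at 4.48 normalized counts at most. Il7r, the interleukin 7 receptor of early lymphoid cells, was at 424, 82.8 and 14.3 for Lym and at 2.65 to 4.13 for Lin-. Dntt, the terminal transferase of early lymphoid cells, was at 216, 29.1 and 4.76 for Lym and listed at 0 in every Lin- library. Lym mouse 87 had the lowest Lym value of both. The erythroid genes Hbb-bt and Car1 and the granulocyte gene Ly6g were listed at 0 in every library, and Klf1, an erythroid factor, reached 16.7. Of the other myeloid genes listed, Lyz2 and Itgam were present, while S100a8, S100a9 and Ltf reached 7.92, 22.1 and 7.92 at most. Lyz2, the lysozyme of myeloid cells, was at 1299, 1167 and 858 for Lym and 1537, 1809 and 1458 for Lin-, with Lin- higher and the groups apart, and the integrin gene Itgam was at 286 to 597 over all 6 libraries. Of 3 megakaryocyte genes listed, Itga2b was at 546, 218 and 46.7 for Lym and 18.6 to 45.9 for Lin-. Pf4 and Gp9 reached 3.36 normalized counts at most. The sum of the list, 553, 219 and 46.7 for Lym and 18.6 to 46.8 for Lin-, was thus nearly all Itga2b. The part of these marker differences between libraries in the results below was not tested.

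All 39 genes were expressed above the low-value filter in both cell types, and none differed between Lym and Lin- past the threshold. The filter, a minimum of 10 normalized counts reached by 3 or more libraries, removed no member, and the lowest value was 45.9 normalized counts (41 reads, Ube2t in Lym mouse 63). Normalized counts are the authors' gene counts divided by 1 size factor a library, differences are on the log2(normalized count + 2) scale, and a call needs an adjusted p (Benjamini-Hochberg, limma over all 14273 genes tested) under 0.05. No member was called with limma, edgeR, limma-voom or DESeq2, and each of these tools gave 1 member, Atm, an unadjusted p under 0.05. That is 2.56% of the members, against 10.2% of all genes tested in limma (5.96% with Lym higher and 4.27% with Lym lower), 10.1% in edgeR, 9.54% in limma-voom and 11.2% in DESeq2. Over all genes limma called 0 (0.0%), with 1459 at an unadjusted p under 0.05, while edgeR and limma-voom called 0 and DESeq2 called 211 (1.48%). In the authors' deposited table no member had an adjusted p under 0.05 either, where 0.32% of all genes with a value had one, and the lowest adjusted p among the members there was 0.89.

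The members' differences were small and mostly toward lower values in Lym. The median log2 difference was -0.09, beside -0.01 over all genes tested, and 28 of 39 members (71.8%) lay below 0, against 51.3% of all genes. Without Lym mouse 63, 17 of 39 members lay below 0 and the median was 0.04. Log2 differences ran from -0.59 (Rad51c) to 0.34 (Atm), and the median absolute difference was 0.14, against 0.24 over all genes. For 35 of 39 members (89.7%) the 95% interval of the log2 difference lay within -1 to 1, against 58.4% of all genes tested. The 4 others were Chek1, Rad51c, Fanca and Ube2t, whose intervals reached down to -1.07, -1.47, -1.39 and -1.03. Count level was not matched in these comparisons with all genes. The filter let in genes from 10 normalized counts in 3 libraries, while no member fell below 45.9. The members were more even in Lin- than in Lym, with a median SD of log2 values of 0.18 in Lin- and 0.30 in Lym, beside 0.22 and 0.32 over all genes.

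**Figure D1:**
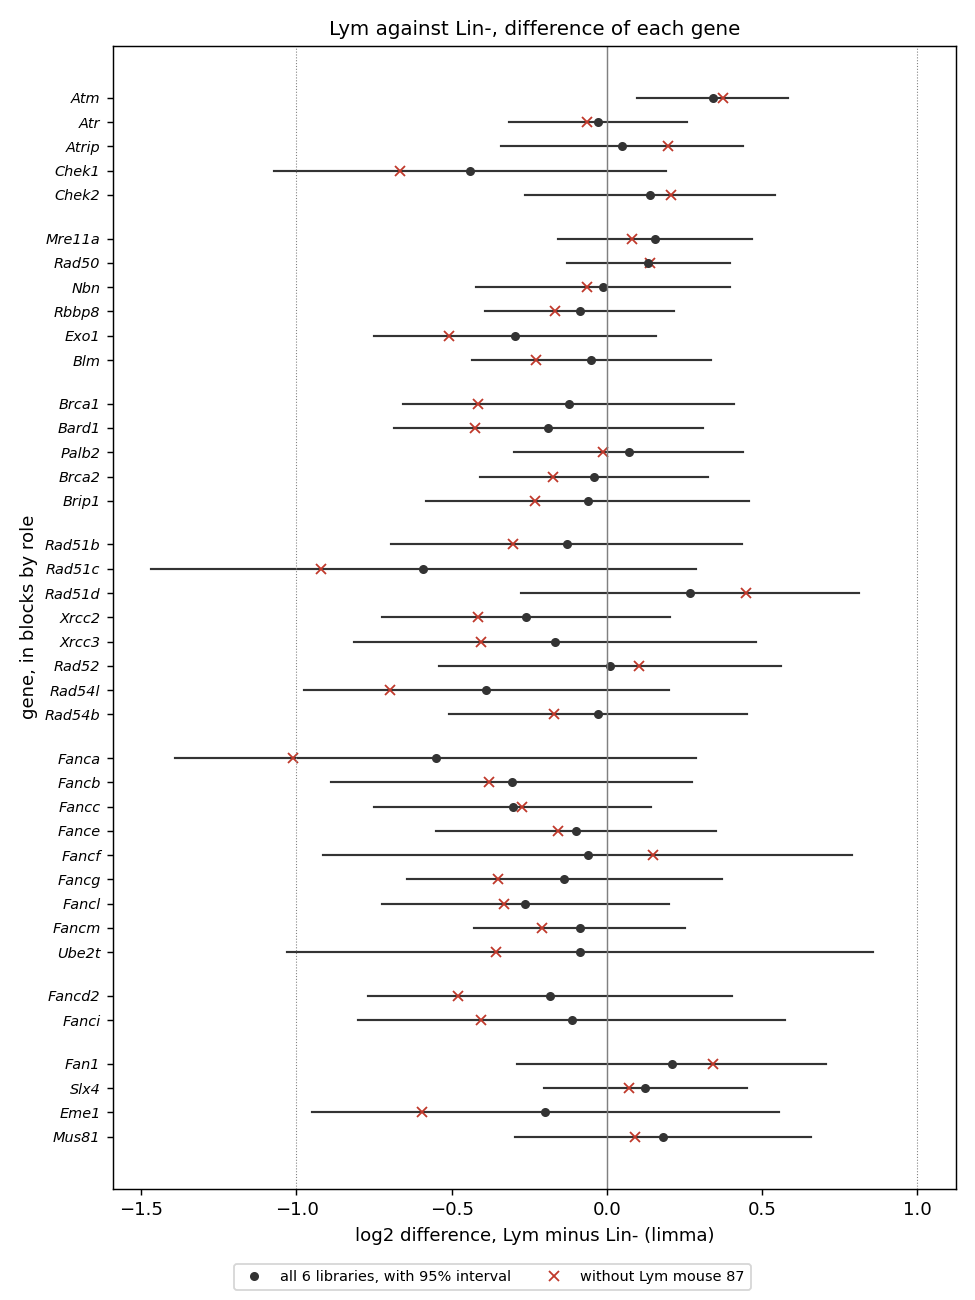
The log2 difference (Lym minus Lin-, horizontal axis) of each of the 39 genes, in blocks by role from top to bottom, as points with 95% intervals from limma over 3 Lym and 3 Lin- libraries, and as crosses without Lym mouse 87. Only the interval of Atm leaves out 0, and crosses lie to the left of the points for most genes, furthest for Fanca at -1.01.

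Transcript levels per length spanned a wide range within the pathway. Measured as RPKM (reads scaled by exon length and by the library's total) and averaged over the 6 libraries, Rad50 was highest at 42.6, followed by Atm at 16.1, Nbn at 15.3, Mre11a at 14.0 and Brca1 at 12.0. Rad52 (1.95), Rad51c (1.69), Fancc (1.65) and Ube2t (0.84) were lowest. The median member stood at 5.05, beside 5.07 over all genes tested. The 3 subunits of the MRN complex were thus among the 4 most abundant members. The exon length in the deposited table joins all annotated transcripts of a gene, and genes with a long joint length, such as Atr with 23629 bases, may read low on this scale.

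The promoters of 5 members are shown because their genes carry the contrasts below: Brca1, Bard1, Fanca and Rad54l had their highest value in Lym mouse 87 and were below every Lin- library in Lym mice 62 and 63, and Atm was higher in all 3 Lym mice. Each sequence runs 5′ to 3′ on the gene's strand from 250 bases before to 50 bases after the RefSeq transcription start (build GRCm38.p6), and capitals mark CCAAT boxes (CCAAT or its complement ATTGG) and E2F words.
Brca1, chr11:101551906-101552205, minus strand: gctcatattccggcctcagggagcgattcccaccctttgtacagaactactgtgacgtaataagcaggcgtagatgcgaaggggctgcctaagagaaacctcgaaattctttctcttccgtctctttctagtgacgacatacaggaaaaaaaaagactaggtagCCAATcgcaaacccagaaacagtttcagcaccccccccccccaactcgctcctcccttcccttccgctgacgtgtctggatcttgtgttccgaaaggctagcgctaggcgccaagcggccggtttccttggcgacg
Bard1, chr1:71102923-71103222, minus strand: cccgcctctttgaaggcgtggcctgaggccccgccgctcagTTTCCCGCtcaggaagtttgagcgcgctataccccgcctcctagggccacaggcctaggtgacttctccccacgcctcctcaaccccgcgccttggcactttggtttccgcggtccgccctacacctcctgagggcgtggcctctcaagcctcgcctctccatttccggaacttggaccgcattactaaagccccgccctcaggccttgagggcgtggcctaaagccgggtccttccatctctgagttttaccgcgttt
Fanca, chr8:123318527-123318826, minus strand: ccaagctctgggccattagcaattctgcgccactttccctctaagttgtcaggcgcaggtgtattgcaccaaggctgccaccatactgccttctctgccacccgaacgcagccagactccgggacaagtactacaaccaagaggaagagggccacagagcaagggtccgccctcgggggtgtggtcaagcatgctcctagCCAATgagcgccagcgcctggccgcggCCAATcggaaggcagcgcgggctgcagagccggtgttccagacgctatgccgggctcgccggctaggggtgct
Rad54l, chr4:116123641-116123940, minus strand: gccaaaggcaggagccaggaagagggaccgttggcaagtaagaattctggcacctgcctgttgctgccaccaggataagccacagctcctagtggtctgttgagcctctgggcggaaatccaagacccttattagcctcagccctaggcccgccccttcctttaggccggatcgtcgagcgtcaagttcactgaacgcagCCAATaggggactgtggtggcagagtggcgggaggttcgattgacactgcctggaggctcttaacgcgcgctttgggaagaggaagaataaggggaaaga
Atm, chr9:53536622-53536921, minus strand: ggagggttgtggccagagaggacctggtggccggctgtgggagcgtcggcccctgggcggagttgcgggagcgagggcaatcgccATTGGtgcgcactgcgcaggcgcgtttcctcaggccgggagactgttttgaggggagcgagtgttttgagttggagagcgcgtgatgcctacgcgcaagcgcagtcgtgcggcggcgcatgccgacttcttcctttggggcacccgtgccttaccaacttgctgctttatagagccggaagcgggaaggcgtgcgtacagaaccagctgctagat
The E2F words searched were TTTCCCGC, TTTCGCGC, TTTGCCGC and TTTGGCGC on both strands. RefSeq promoters were matched for 31 of the 39 members, 34 promoters in all. E2F words were found in 6 of these 34 (17.6%), belonging to Bard1, Brca2, Chek2, Fancg and Rad51c, against 2.26% of all 32851 promoters. CCAAT boxes were found in 21 of the 34 (61.8%), against 37.4% of all promoters. The cell cycle word TTTGAA, also on both strands, was found in 3 (8.82%), against 17.9%. No 2 matches of different motifs shared a base, base composition was not matched, and a match of letters is not evidence that a factor binds.

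Among the damage kinases and checkpoint genes, Atm, the kinase that answers double-strand breaks (chromosome 9, 53439149 to 53536740), was the one member whose groups did not overlap. It stood at normalized counts of 3984, 3783 and 3622 across the Lym mice, compared with 2877, 3187 and 2927 across the Lin- mice. All 3 Lym libraries lay above all 3 Lin- libraries, and the Lym values lay close together. The log2 difference was 0.34 ± 0.11 (SE; 95% interval 0.10 to 0.58), a ratio of means of 1.27, with a limma adjusted p of 0.426 and an adjusted p of 0.169 in DESeq2. Groups did not overlap in 1 of 39 members (2.56%), against 15.6% of all genes tested, 8.49% with Lym higher and 7.08% with Lym lower. Across all alternatives tried, the Atm difference stayed between 0.30 and 0.39.

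The other checkpoint genes overlapped between the groups. Atr, the kinase that answers stalled forks, was at 2155 ± 160.2 for Lym and 2200.0 ± 221 for Lin- (SD, n = 3 each), and Atrip, its binding partner, at 624 ± 107 against 597 ± 21.3. Chek2, a kinase that ATM activates, was at 628, 548 and 511 across the Lym mice, compared with 605, 452 and 479.6 across the Lin- mice. Chek1, the effector kinase of ATR, was at 434, 254 and 535 against 609.6, 458 and 530.2. Its low value in Lym mouse 63 was the lowest of the 6, and its log2 difference of -0.44 ± 0.28 (SE) had an interval from -1.07 to 0.19. Of the 5 genes in this group, 2 lay below 0 and 3 above.

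None of the 6 genes of end processing passed the test. The MRN complex, made of MRE11, RAD50 and NBN, binds broken ends and activates ATM. Rad50 (chromosome 11, 53649519 to 53707319) was at 5332, 4499 and 4834 across the Lym mice, compared with 4813, 4155 and 4391 across the Lin- mice. Mre11a, the nuclease, was at 1793 ± 229 against 1604 ± 116 (SD, n = 3 each). Nbn, the adaptor, was at 917, 617 and 837 for Lym and 815, 716 and 831 for Lin-. The values of all 3 subunits overlapped, with log2 differences of 0.13 for Rad50, 0.16 for Mre11a and -0.01 for Nbn. Rbbp8, which encodes the resection factor CtIP, was at 1799 ± 246 against 1900.3 ± 10.3. Exo1, a long-range resection nuclease, was at 770.5, 798 and 1222 for Lym and 1172, 982 and 1212 for Lin-. The helicase gene Blm was at 1717, 1684 and 2468 against 1808, 2044 and 2145. In Exo1 and Blm the libraries of Lym mice 62 and 63 were below all Lin- libraries and that of Lym mouse 87 was the highest of the 6.

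Of the 5 genes of the BRCA complex, 4 had log2 differences below 0 and none passed the test. Brca1 and Bard1 encode a paired ubiquitin ligase that promotes resection. Brca1 (chromosome 11, 101488764 to 101551955) was at 1697, 1486 and 2918 across the Lym mice, compared with 2218, 1927 and 2226 across the Lin- mice. Bard1 (chromosome 1, 71027498 to 71103146) was at 641, 753 and 1134 against 934, 829 and 1049. Each gene had its lowest and its highest value inside the Lym group, on either side of the Lin- values. The log2 difference was -0.12 ± 0.23 (SE; interval -0.66 to 0.41) for Brca1 and -0.19 ± 0.22 (interval -0.69 to 0.31) for Bard1. Brca2, a mediator of strand exchange, was at 2104, 1627 and 2437 against 2168, 1924 and 2184. Brip1, a helicase that binds BRCA1, was at 1122 ± 294 against 1157 ± 219, and Palb2, the bridge between BRCA1 and BRCA2, at 621 ± 64.9 against 592 ± 68.8 (SD, n = 3 each). In all 5 genes of this group Lym mouse 87 had the highest value of the 6 libraries.

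**Figure D2:**
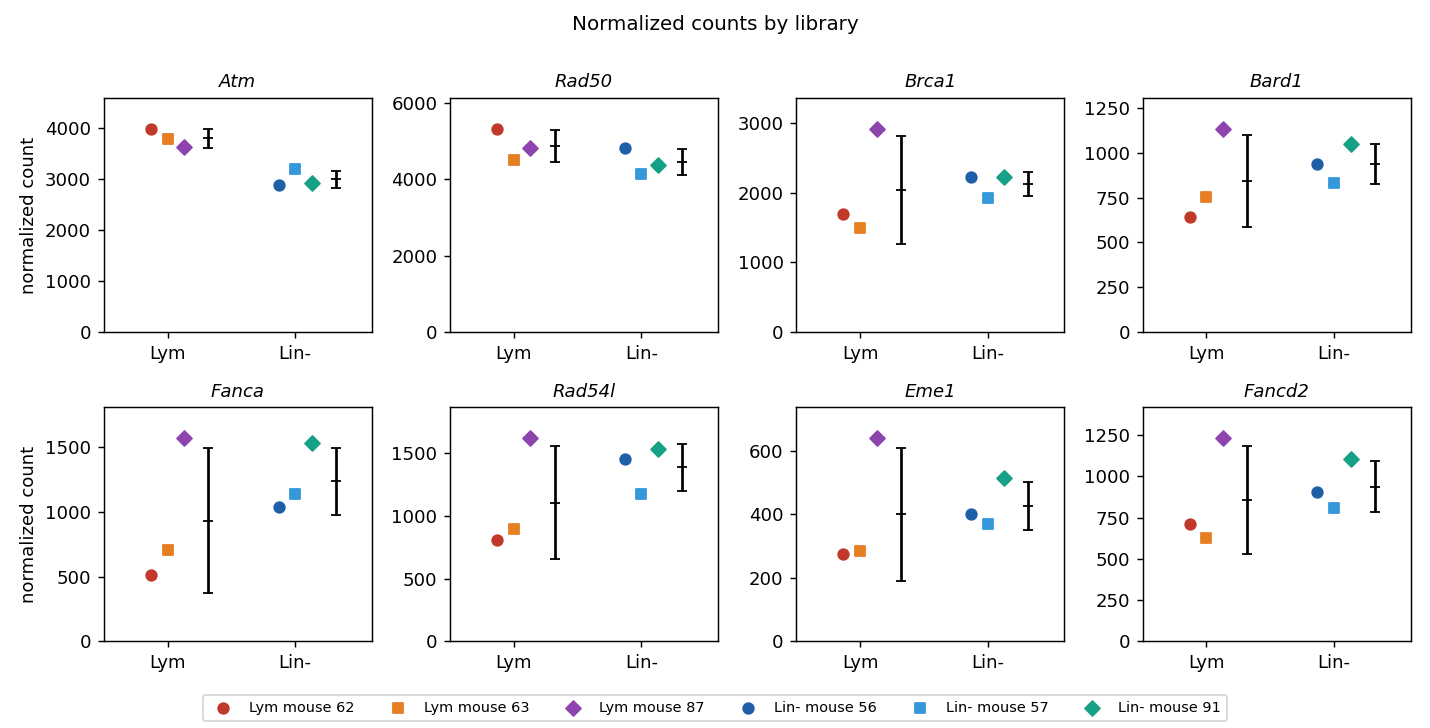
Normalized counts (vertical axes, from 0) of Atm, Rad50, Brca1, Bard1, Fanca, Rad54l, Eme1 and Fancd2 in each Lym and Lin- library, with the group mean ± SD (n = 3 each) as black bars. Atm is higher in all 3 Lym libraries, at 3622 to 3984 against 2877 to 3187, while in the last 6 genes Lym mouse 87 lies above and Lym mice 62 and 63 lie below the Lin- libraries.

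Of the 8 genes Rad51b, Rad51c, Rad51d, Xrcc2, Xrcc3, Rad52, Rad54l and Rad54b, 6 had log2 differences below 0. The first 5 of these encode proteins that form small complexes acting in strand exchange. Rad51b, at 173, 179 and 252 for Lym and 264, 195 and 199 for Lin-, Rad51c, at 113, 72.7 and 183 against 208, 122 and 206, and Xrcc2, at 331, 289 and 427 against 401, 378 and 464, were below every Lin- library in Lym mice 62 and 63. Rad51d was at 456, 438 and 307 against 403, 335 and 259, with Lym mice 62 and 63 above every Lin- library. These 4 genes thus differed in which Lym libraries were high, and none of their log2 differences (-0.59 ± 0.38 for Rad51c, -0.26 ± 0.20 for Xrcc2, -0.13 ± 0.25 for Rad51b, 0.27 ± 0.24 for Rad51d, SE) passed. Xrcc3 was at 207 ± 66.0 for Lym and 228 ± 41.4 for Lin-, and Rad52, an annealing factor, at 231 ± 57.9 against 226 ± 25.3 (SD, n = 3 each). Rad54l, which encodes the RAD54 translocase (chromosome 4, 116094264 to 116123690), was at 804, 893 and 1622 across the Lym mice, compared with 1454, 1174 and 1533 across the Lin- mice. Its relative Rad54b was at 610.1, 443 and 701 for Lym and 549, 528 and 694 for Lin-. Rad54l had the wider split within Lym, and its log2 difference was -0.39 ± 0.26 (SE; interval -0.98 to 0.20).

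All 9 genes of the core complex and its ubiquitin-conjugating enzyme had log2 differences below 0, from -0.55 (Fanca) to -0.06 (Fancf), and none passed. Fanca, a core subunit (chromosome 8, 123268300 to 123318576), was at 515, 708 and 1570.3 across the Lym mice, compared with 1040.1, 1134 and 1532 across the Lin- mice. It had the widest range within Lym of the core genes in normalized counts, and its log2 difference was -0.55 ± 0.37 (SE; interval -1.39 to 0.29). Fancg was at 324, 358 and 532 against 493, 407 and 409, and Fancm, the translocase that anchors the complex to DNA, at 945, 961 and 1227 against 1015, 1135 and 1161. Both were below all Lin- libraries in Lym mice 62 and 63, and highest in Lym mouse 87. Fancl, the ligase subunit, was at 271 ± 38.8 against 325 ± 36.9, Fancc at 250.4 ± 21.1 against 310.4 ± 38.2, Fance at 305 ± 51.5 against 324 ± 10.4 and the X-linked Fancb at 145 ± 21.9 against 180.3 ± 31.8 (SD, n = 3 each). Fancf was at 125 ± 43.5 against 133 ± 53.5. Ube2t, the conjugating enzyme, was the least abundant member, at 86.4, 45.9 and 112 for Lym and 115, 72.2 and 65.0 for Lin-.

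Both genes of the pair that the core complex marks had log2 differences below 0. Fancd2 (chromosome 6, 113531682 to 113597017) was at 709.9, 627 and 1233 across the Lym mice, compared with 902, 805 and 1108 across the Lin- mice. Fanci was at 982, 553 and 1353 against 1034, 809.7 and 1113. Both genes were lowest in Lym mouse 63 and highest in Lym mouse 87. Their log2 differences were -0.18 ± 0.26 and -0.11 ± 0.30 (SE).

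Of the 4 genes for nucleases of crosslinks and junctions, 1 had a log2 difference below 0. Eme1, the partner of the junction nuclease MUS81 (chromosome 11, 94644996 to 94653964), was at 275, 283 and 640.3 across the Lym mice, compared with 399.6, 369 and 513 across the Lin- mice. Mus81 itself was at 324, 394 and 433 against 367, 378 and 272. The 2 subunits of this enzyme differed in pattern, since Eme1 split the Lym libraries to either side of Lin- and Mus81 did not. Slx4, the scaffold that holds such nucleases, was at 1268, 1323 and 1444 for Lym and 1046, 1358 and 1316 for Lin-, with overlapping groups. Fan1, a nuclease of crosslink repair, was at 357, 305 and 249.6 against 224, 297 and 264, with Lym mice 62 and 63 above every Lin- library.

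**Figure D3:**
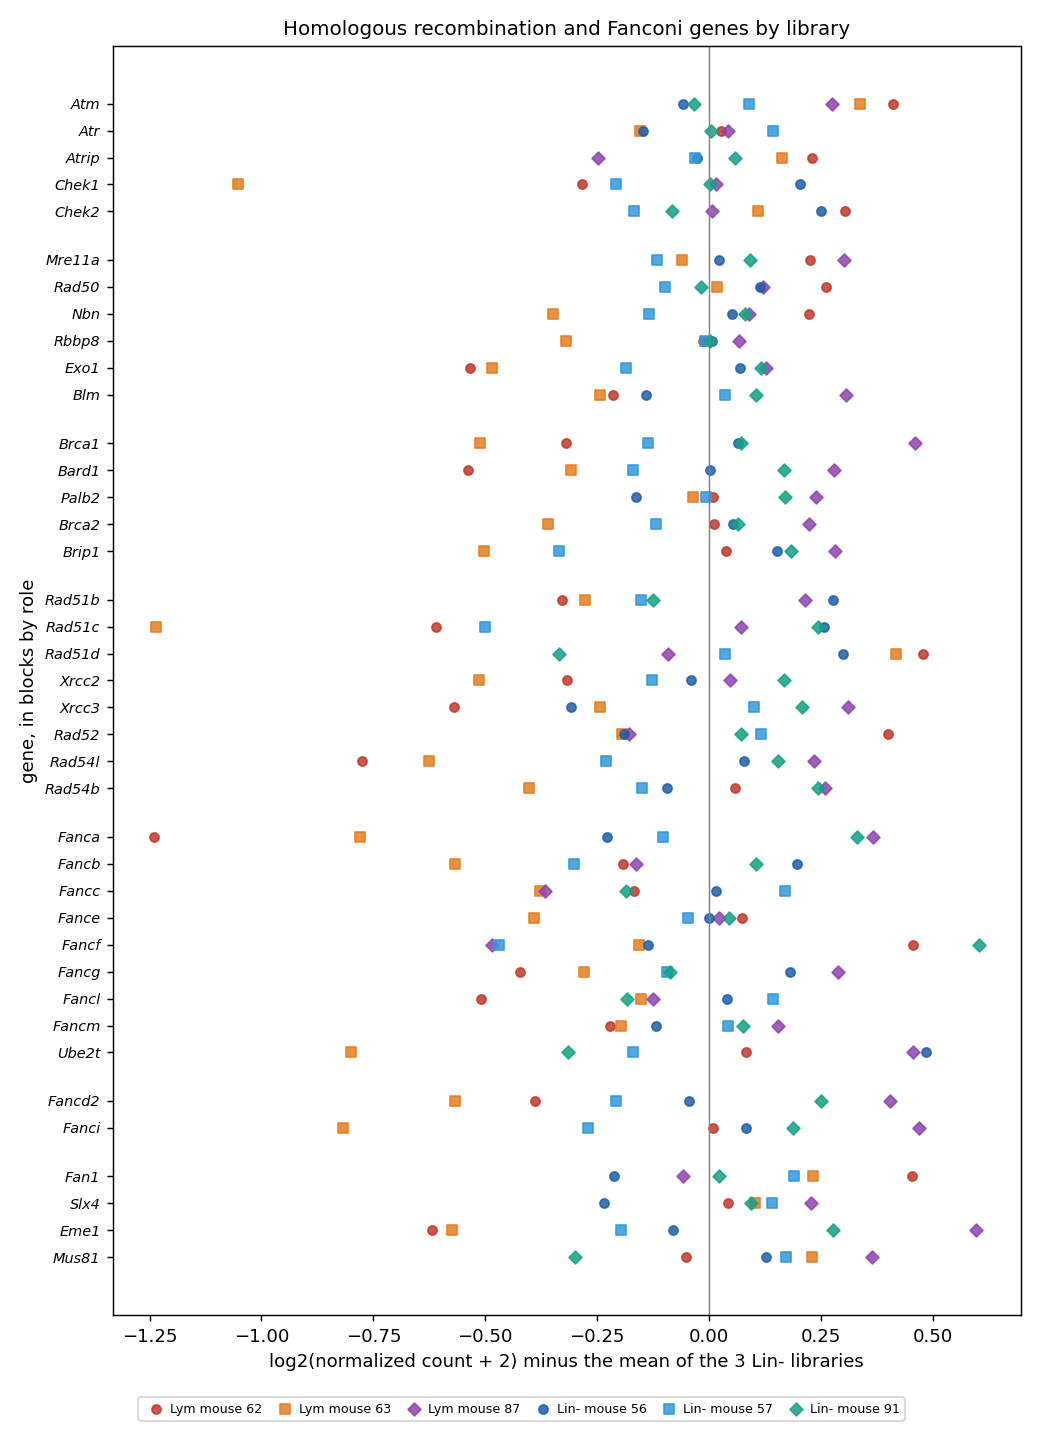
Each library's log2(normalized count + 2) minus the mean of the 3 Lin- libraries (horizontal axis) for the 39 genes, in blocks by role. Purple diamonds (Lym mouse 87) lie furthest right in 20 genes, while red circles and orange squares (Lym mice 62 and 63) lie left of all Lin- points in 15 genes.

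Across roles, the spread lay within the Lym group more than between the groups. Lym mouse 87 had the highest value of the 6 libraries in 20 of 39 members (51.3%), against 16.1% of all genes tested. Lym mouse 62 was highest in 9 (26.6% of all genes) and Lym mouse 63 in 0 (15.2%). The lowest value came from Lym mouse 62 in 10 members (24.3% of all genes), from Lym mouse 63 in 18 (18.6%) and from Lym mouse 87 in 2 (14.7%). Lym mice 62 and 63 were both below every Lin- library in 15 members (38.5%), against 21.7% of all genes tested, and both above in 4 (10.3%), Atm, Atrip, Rad51d and Fan1, against 21.7%. The 15 were Chek1, Rbbp8, Exo1, Blm, Brca1, Bard1, Rad51b, Rad51c, Xrcc2, Rad54l, Fanca, Fancg, Fancm, Fancd2 and Eme1. In 14 of them, all but Rad51c, Lym mouse 87 was at or above the median of the Lin- libraries, an arrangement seen in 10.0% of all genes. These counts describe single libraries and were read after the values were seen, so they carry no test.

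Summed over the 39 members, CPM (reads scaled by the library's total) came to 1741, 1562 and 2126 across the Lym mice, compared with 1896, 1796 and 1904 across the Lin- mice. The Lin- range thus lay between the Lym libraries, and group means were 1809 ± 288 against 1865 ± 60.0 (SD, n = 3 each). The difference of these means moved from -55.7 to -214 CPM without Lym mouse 87, to 68.2 without Lym mouse 63, and to -5.64 with the authors' size factors in place of library totals. A list of 30 cell cycle genes gave 5175, 4854 and 8669 CPM for Lym and 7342, 5700 and 7415 for Lin-. The order was alike, with Lym mice 63 and 62 lowest and Lym mouse 87 highest in both sums. In this list 24 of 30 genes were below every Lin- library in Lym mice 62 and 63, 20 were highest in Lym mouse 87, and 28 had a log2 difference below 0. None was called, and 0 had an unadjusted p under 0.05 in limma, edgeR, limma-voom or DESeq2. The proliferation marker Mki67 was at 25019, 24671 and 46231 for Lym and 28571, 21068 and 34789 for Lin-, and the topoisomerase gene Top2a at 16222 ± 5154 compared with 14036 ± 2959 (SD, n = 3 each). Mki67 and Top2a, named for their high means, were the only 2 genes of the list above 0. Their log2 differences were 0.15 ± 0.27 and 0.19 ± 0.24 (SE), and both were lowest in Lin- mouse 57. Ccne2 and Ccnb2, the cyclins with the lowest p of the list, had log2 differences of -0.40 ± 0.21 and -0.47 ± 0.25 (SE). The part of cell cycle state in the members' values was not tested, and in bulk RNA fewer cycling cells cannot be told apart from less RNA per cell.

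**Figure D4:**
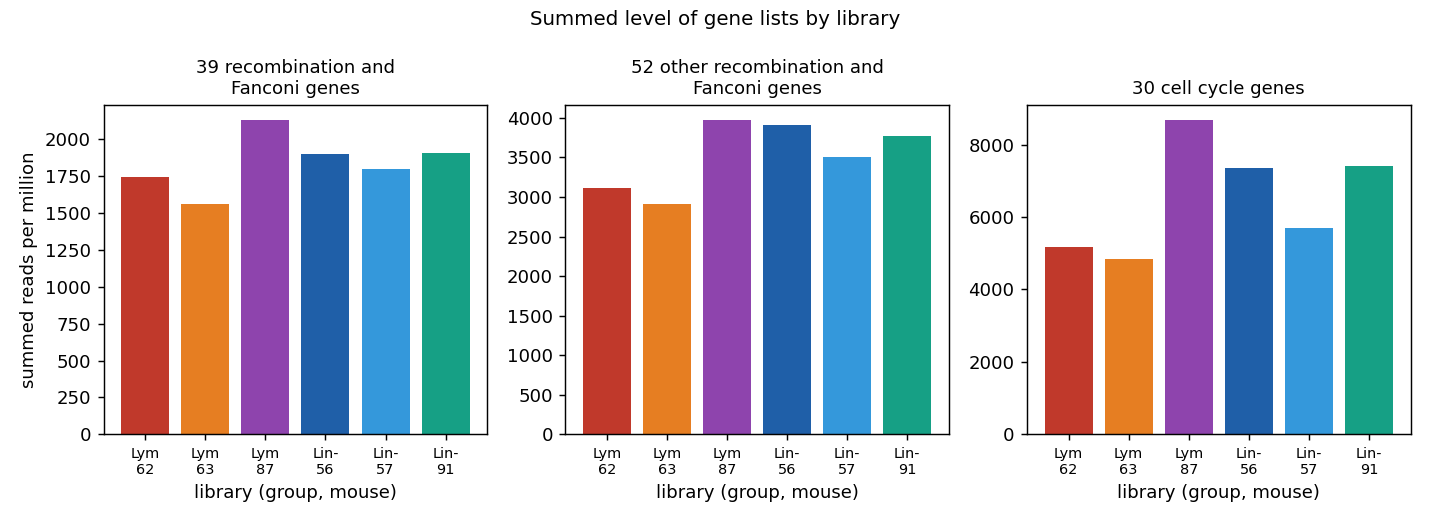
Summed CPM (vertical axes, from 0) in each library for the 39 genes described here, 52 other genes of the pathway and 30 cell cycle genes, 1 bar a library and no error bars. Lym mice 62 and 63 give the lowest bars in all 3 panels and Lym mouse 87 the highest, at 2126, 3969 and 8669.

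Without Lym mouse 87, 2 members were called, both lower in Lym. Fanca had a log2 difference of -1.01 ± 0.20 (SE, limma adjusted p = 0.0196) and Rad54l one of -0.70 ± 0.15 (limma adjusted p = 0.0252). These calls are 5.13% of the members, against 9.67% of all genes tested in the same fit (4.18% lower, 5.49% higher). At an unadjusted p under 0.05 there were 10 members (25.6%), against 26.0% of all genes, 9 lower (23.1% against 12.7%) and 1 higher (2.56% against 13.3%). The 9 lower were Chek1, Exo1, Brca1, Bard1, Rad51c, Rad54l, Fanca, Fancd2 and Eme1, and the 1 higher was Atm. Among the 30 cell cycle genes 11 were called in that fit, all lower. This fit uses the same libraries as the fit of all 6 and is no separate support for a group difference.

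Several members sit head to head with another gene. In GENCODE M21, which held 38 of the 39 member identifiers (not that of Fancb), 9 members (23.7%) had a protein-coding gene on the opposite strand starting within 1000 bases upstream, against 11.6% of tested protein-coding genes. Npat, a histone gene regulator that starts 307 bases from Atm, was at 1466, 1095 and 1162 across the Lym mice, compared with 1316, 1155 and 1135 across the Lin- mice. Its groups overlapped and its log2 difference was 0.04 ± 0.15 (SE), beside 0.34 ± 0.11 for Atm. Nbr1, 194 bases from Brca1, was at 2668, 2156 and 1991 against 1835, 2236 and 1816. Its highest value was in Lym mouse 62, where Brca1 was low. Emc3, 30 bases from Fancd2, had a log2 difference of -0.03 ± 0.14, and Pomgnt1, 150 bases from Rad54l, of 0.04 ± 0.17 (SE). Tex14, 111 bases from Rad51c, lay below 0 as Rad51c did, at 10.1, 1.12 and 30.5 for Lym and 19.4, 7.04 and 106 for Lin-, a log2 difference of -1.37 ± 1.09 (SE) at low counts. The log2 differences of the other 4 neighbours, Hscb, Dctn5, Zfyve26 and Zfyve21, lay between -0.06 and 0.09.

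Exons of 19 of these 38 members share bases with exons of another gene, over 10% of their length in 9. These include Rad54b (35.9%, with Fsbp on the same strand), Rad54l (15.4%, with Lrrc41 on the opposite strand), Eme1 (10.7%, with Lrrc59 and Mrpl27) and Fanca (10.5%, with Zfp276). How shared reads were counted is not given in the sources used here, and values of these genes are uncertain to that extent. Brca1, Bard1, Exo1, Blm, Atm and Rad50 shared no exon base.

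Of 52 further recombination and Fanconi genes, all tested, none was called, 3 (5.77%) had an unadjusted p under 0.05 against 10.2% of all genes, and groups did not overlap in 7 (13.5%) against 15.6%. Their median log2 difference was -0.12. Dna2, a resection nuclease and helicase, was at 1010.5, 1247 and 2004 across the Lym mice, compared with 1853, 2208 and 2080.4 across the Lin- mice (log2 difference -0.58 ± 0.23, SE; limma adjusted p = 0.465). Faap24 and Faap100, accessory subunits of the Fanconi core, differed in sign. Faap24 was at 157, 211 and 284 against 301, 309.8 and 338, a log2 difference of -0.58 ± 0.25 (limma adjusted p = 0.485), and Faap100 at 401, 348 and 422 against 335, 268 and 259.9, one of 0.44 ± 0.19 (limma adjusted p = 0.485). Groups of both genes were apart, in a list where 4 were apart with Lym lower and 3 with Lym higher. Swi5, a cofactor of recombination, was at 1549 ± 436 against 2009.7 ± 140.3 (SD, n = 3 each). The highest in normalized counts, which are not scaled by length, were Topbp1, an activator of ATR, at 8130.2 ± 1620.4 against 9639 ± 734, and Usp1, the enzyme that removes ubiquitin from FANCD2, at 5065 ± 777 against 6004 ± 635. Summed CPM of the 52 genes came to 3111, 2913 and 3969 for Lym and to 3908, 3502 and 3770.0 for Lin-, again with Lym mice 62 and 63 lowest and Lym mouse 87 highest.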

How the data were processed

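The samples are 3 Lym and 3 Lin- libraries of total RNA, made, per the labels' protocols, with a stranded kit for very low input, 12 PCR cycles and 38-base reads. The submitters' processing notes list these tools for the steps before deposit: bcl2fastq, DESeq2, featureCounts 1.6.4, STAR 2.6.1d and Trim Galore 0.6.4, with build GRCm38.p6. The deposited signal per library is a gene's count over that library's size factor, and up to 10000 each value was a whole number of steps (100.0% of values, tolerance 0.01), from which reads were recovered. The authors' log2 fold change (signs turned here to Lym minus Lin-), standard error, Wald score, p-value and adjusted p-value stand in the same deposited table, with exon lengths.

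limma 3.58.1 in R 4.3.3, with its trend option, was run on log2(normalized count + 2) for genes reaching 10 normalized counts in 3 or more libraries, with Benjamini-Hochberg adjustment over all of them and 95% intervals. On the recovered reads, edgeR 4.0.16, DESeq2 1.42.0 and limma-voom were run, and limma and these 3 tools were tested on simulated data with known changes. Other alternatives were the pseudocount, the filter, the scaling, library weights and leaving out each mouse. Depth of 18537700 to 22634286 recovered reads limits precision, and intervals of counting take no account of PCR duplicates. No batch is labelled. Nothing in the labels says whether mice share a donor, and the p-values set group differences against the spread between these libraries only.

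Values in every library were to be given for members with an unadjusted p under 0.05 or groups apart and for the 2 most abundant per kilobase in each role, with SE and adjusted p for the former. From the other repair genes the 4 with the lowest p and the 2 with the highest mean normalized count were named, and from the cell cycle genes the 2 of each kind. Some genes on the lists are not reported by name here. The members and lists were chosen with earlier results of these data known. Other members given by library or with an SE, and the neighbouring genes, were chosen after their values were seen. Python 3.11.15, pandas 2.3.3 and matplotlib 3.10.9 handled tables and figures.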

Additional observations from a re-analysis of the deposited data

How the results depend on the processing

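With 3 mice a group the 95% intervals are wide, and a miss of the threshold does not show that the groups are alike. No paired analysis was possible because no mouse number occurs in both groups. The count of called genes was 0 and became 211 with DESeq2, 660 with library weights, 5 without the low-value filter and 1 with a pseudocount of 8. Leaving out each mouse in turn gave 0 to 1348, the highest without Lym mouse 87. Members with an unadjusted p under 0.05 numbered 1 and became 10 with library weights (25.6% of the members against 26.3% of all genes). Of these, 9 were lower in Lym (23.1% against 13.1% of all genes) and 1 higher (2.56% against 13.1%). The members' count ran from 1 to 10 over the left-out mice, 10 without Lym mouse 87. For the other repair genes the count of 3 became 15 with library weights (2 higher and 13 lower, 28.8%), 1 with edgeR and 1 with a pseudocount of 8, and ran from 0 to 13 over the left-out mice. The cause of these shifts was not tested. Atm kept its direction and missed the adjusted threshold under all 16 alternatives. The members' median log2 difference ran from -0.23 to 0.04 over the 16 alternatives, above 0 only without Lym mouse 63. Against the scaling used, TMM moved the median of all genes by -0.0026 and library totals by -0.04 on the log2 scale, and 28 and 29 of 39 members lay below 0 with them. The difference in the summed level of cell cycle genes, -586 CPM, ran from -1804 to 103 over the left-out mice.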
